A study of Mus musculus with 5 samples.

Results

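The genes described here are WNT ligands, their receptors, the R-spondin system that tunes receptor number, secreted WNT antagonists, and genes that respond to the pathway. They were taken from a list of 46 WNT pathway genes, all of which stood in the count tables of 23284 gene symbols, and 45 had at least 10 counts in 2 or more libraries. Sfrp4 was the member left out, with at most 4 counts in any library. WNT proteins are secreted lipid-modified ligands that bind Frizzled receptors. With the co-receptors Lrp5 and Lrp6 they stabilise beta-catenin, which acts through the DNA-binding factors Lef1 and Tcf7, and with Ror receptors they orient cells without beta-catenin. In the limb bud, WNTs from the ectoderm maintain the apical ridge and keep underlying mesenchyme from turning into cartilage, and mesenchymal Wnt5a drives elongation along the proximal to distal axis.

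Total RNA came from mouse forelimb at 2 embryonic stages. Distal forelimb was taken at E11.5, in 2 libraries from wild-type embryos and 2 from Hoxa13-/-;Hoxd13-/- embryos (called mutant), both on a mixed C57BL/6 and CD1 background. Each of these libraries was a separate pool of dissected tissue (the protocol gives N=4), so a value is an average over embryos. The E10.5 group was 1 library of forelimb bud from CD1 embryos. Both mutant alleles are present in every cell of the embryo, and both are insertions: Hoxa13 carries a neomycin cassette in its coding region, and the first exon of Hoxd13 holds lacZ.

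Reads counted in genes numbered between 45115494 and 59837137 in the E11.5 libraries and 84172202 at E10.5. Values below are CPM, counts per 1000000 counted reads of the library. Hoxd13 measured 247 and 246 CPM in wild type and 47.7 and 40.0 in the mutant. Hoxa13 measured 50.8 and 47.2 in wild type and 48.0 and 39.8 in the mutant, but reads outside the cassette remain countable, so its level does not check the labels. Tbx5, which marks forelimb, lay between 83.5 and 101 CPM at E11.5, and the hindlimb gene Pitx1 at 0.399 or less in every library. Tbx4, the other hindlimb gene looked at, was not absent. It measured 8.29 and 7.70 CPM in wild type, 10.4 and 8.90 in the mutant and 5.81 at E10.5. As these are bulk tissues, fewer cells of a type and less RNA per cell cannot be told apart.

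Levels were first ordered per kilobase of exon, using GENCODE M21 exon lengths, since a raw CPM favours long transcripts. Per kilobase, Wnt5a was the most abundant ligand in wild-type distal forelimb, at 29.0 and 24.2 CPM per kb. Wnt6, an ectodermal ligand, followed at 8.88 and 7.74, and Wnt11 at 6.48 and 6.46, while Wnt10a and Wnt10b lay at 0.658 or below in both libraries. Wnt5a stood apart from the other ligands by more than its spread, whereas Wnt11 (6.48 and 6.46) and Wnt5b (5.85 and 6.21) differed little.

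The receptor with the highest wild-type level per kilobase was Fzd2 (31.9 and 34.6 CPM per kb), then Fzd10 (22.0 and 19.9). Fzd3, Lrp6 and Fzd1 came next, between 16.9 and 19.5. Lrp6 (19.5 and 16.9) overlapped both Fzd3 (19.4 and 18.4) and Fzd1 (17.7 and 17.5), which did not overlap each other. Among the R-spondin genes Rspo3 led (14.3 and 17.8), and among antagonists Frzb (24.8 and 24.8), Sfrp2 (16.6 and 15.9) and Wif1 (15.9 and 14.0), of which the last 2 overlapped. Nkd2 (18.7 and 18.7) and Axin2 (17.4 and 13.1) were highest among the feedback genes. Since the sources used here do not name the authors' annotation, these orders are approximate.

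**Figure D1:**
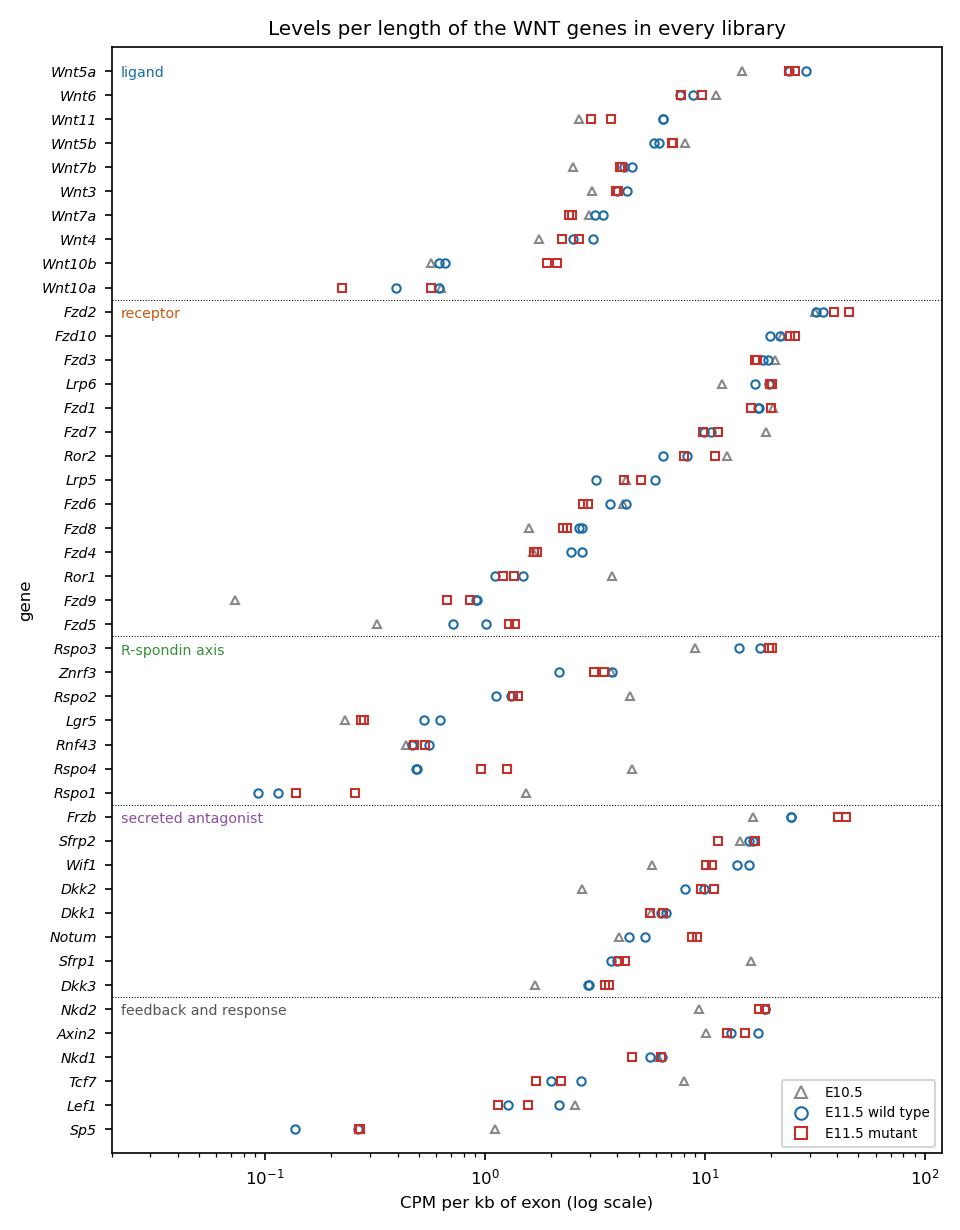
Level of each of the 45 WNT genes in CPM per kb of exon on a log axis, with 1 symbol per library (triangles E10.5, circles wild type, squares mutant) and genes ordered by wild-type level within each role. Wnt5a, Fzd2, Rspo3, Frzb and Nkd2 head their roles in wild type.

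At E11.5 the WNT genes moved singly and in both directions between the genotypes. Of the 45 members, 4 rose in the mutant (Wnt10b, Rspo4, Notum and Frzb) and 5 fell (Lgr5, Wnt11, Fzd4, Wif1 and Fzd6) at an adjusted p below 0.05 by the edgeR quasi-likelihood test. That is 20% of the members, beside 7.16% of all 16166 genes tested (3.82% rose and 3.34% fell). The median log2 fold change of the members was -0.02, with 22 above 0 and 23 below, and that of all genes was -8.187e-04. CPM values of the genotypes did not overlap for 25 of the 45 members (55.6%), beside 49.5% of all genes. The remaining 36 members did not pass the threshold, with log2 fold changes between -0.45 and 0.90.

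**Figure D2:**
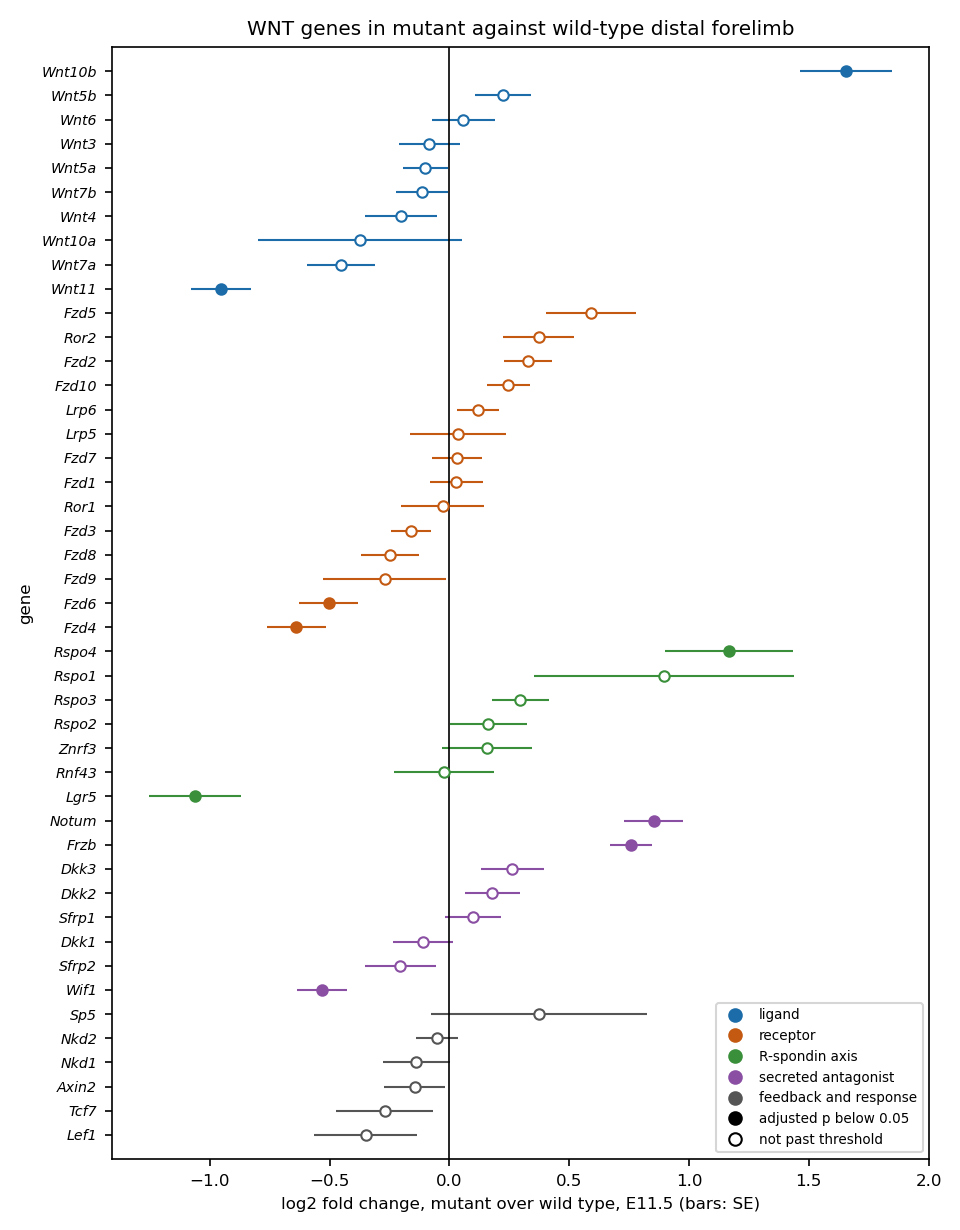
Log2 fold change of each WNT gene, mutant over wild type at E11.5, with its standard error, grouped by role; filled points passed an adjusted p of 0.05. The 4 genes that rose and 5 that fell came from 4 of the 5 roles, and all 6 feedback and response genes have open points.

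Sequence upstream of the annotated start is shown for 4 members that changed, to place the ligands and modulators in the genome beside their values. RefSeq promoter entries (GRCm38.p6) matched 29 of the 46 genes. Each line holds the 250 bases before the start, 5′ to 3′ on the gene's strand. Capitals mark matches to CTTTGAT, the core letters bound by TCF/LEF factors, or TATAAA, on either strand. Wnt11 lies at chr7:98834862-98835111 (plus strand, the first of 2 annotated starts), Wnt10b at chr15:98778151-98778400 (minus), Rspo4 at chr2:151842677-151842926 (plus) and Frzb at chr2:80447397-80447646 (minus).
Wnt11: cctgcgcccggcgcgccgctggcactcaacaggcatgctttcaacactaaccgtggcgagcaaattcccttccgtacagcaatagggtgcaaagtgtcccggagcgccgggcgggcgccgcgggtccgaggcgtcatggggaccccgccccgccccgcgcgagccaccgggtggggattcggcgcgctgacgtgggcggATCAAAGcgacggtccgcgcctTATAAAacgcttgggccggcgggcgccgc
Wnt10b: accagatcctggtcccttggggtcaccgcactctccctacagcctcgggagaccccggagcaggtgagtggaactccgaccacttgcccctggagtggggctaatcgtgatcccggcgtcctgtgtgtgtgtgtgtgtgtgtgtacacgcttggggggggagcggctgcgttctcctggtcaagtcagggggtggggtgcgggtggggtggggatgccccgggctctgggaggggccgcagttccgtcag
Rspo4: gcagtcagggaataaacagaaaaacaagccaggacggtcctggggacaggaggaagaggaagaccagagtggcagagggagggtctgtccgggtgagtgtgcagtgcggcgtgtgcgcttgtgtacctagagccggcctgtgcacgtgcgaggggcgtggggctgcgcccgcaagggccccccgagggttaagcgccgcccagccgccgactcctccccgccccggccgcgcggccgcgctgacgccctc
Frzb: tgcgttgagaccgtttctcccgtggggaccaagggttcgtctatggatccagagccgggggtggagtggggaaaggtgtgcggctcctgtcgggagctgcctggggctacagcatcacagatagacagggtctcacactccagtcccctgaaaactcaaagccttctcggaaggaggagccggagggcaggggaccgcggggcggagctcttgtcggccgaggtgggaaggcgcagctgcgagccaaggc
In the Wnt11 sequence the TCF/LEF letters begin 51 bases before the start, on the opposite strand, and TATAAA begins 29 bases before it. The 250 bases before the other annotated Wnt11 start (chr7:98838595-98838844) held neither. CTTTGAT was found in 3 of 37 member promoters (Wnt11, Wnt5b and Sp5) and in 3.21% of 32851 promoters of this length, and TATAAA in 7 and 12.4%. The letters CTCATAAA and CCAATAAA, 2 forms recognised by HOX13 proteins, were in none of the 37 and in 0.81% and 1.02% of all promoters. The TCF/LEF and TATAAA letters in the Wnt11 sequence do not overlap. Median GC content was 65.2% over the member promoters and 52.4% over all.

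Among the ligands, Wnt10b rose, Wnt11 fell, and the other 8 did not pass the threshold. Wnt10b, a ligand that signals through beta-catenin, measured 2.24 and 2.095 CPM in the wild-type libraries and 6.53 and 7.27 in the mutant. Both mutant values lay well above both wild-type values, with 1.66 as log2 fold change (SE 0.19, adjusted p = 2.40e-04). Wnt11, a ligand known mainly for beta-catenin-independent signalling and cell movement, measured 26.8 and 26.7 CPM in wild type and 12.5 and 15.5 in the mutant. The genotypes did not overlap, and the log2 fold change was -0.95 (SE 0.13, adjusted p = 5.41e-04).

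Wnt7a, the dorsal ectodermal signal that patterns the back of the limb, measured 11.0 and 10.1 CPM in wild type and 7.62 and 7.91 in the mutant. Its values did not overlap, but the log2 fold change of -0.45 (SE 0.14) had an adjusted p of 0.0819. Wnt5a, needed for outgrowth, measured 227 and 190 CPM in wild type and 202 and 189 in the mutant. These ranges overlapped (log2 fold change -0.10, SE 0.09). Wnt7b measured 22.9 and 21.0 CPM in wild type and 20.7 and 20.1 in the mutant, with a log2 fold change of -0.12 (SE 0.11). Wnt3, Wnt4, Wnt5b, Wnt6 and Wnt10a also did not pass, and the 8 ligands that missed the threshold lay between -0.45 and 0.23.

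Several of these ligands are made in ectoderm, so the ectodermal markers were set beside them. The summed level of 21 surface ectoderm genes was 574 to 587 CPM in wild type and 543 to 570 in the mutant, with 0 risen and 2 fallen (Krt8 and Krt14). The sum of 8 ridge genes was 48.8 to 58.4 CPM in wild type and 69.5 to 71.7 in the mutant, with 3 risen (Fgf4, Fgf8 and Fgf17) and 2 fallen (Sp6 and Dlx2). No gene of either list was at 0 in every library. The ridge sum thus moved in the same direction as Wnt10b, and its part in that result was not tested.

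**Figure D3:**
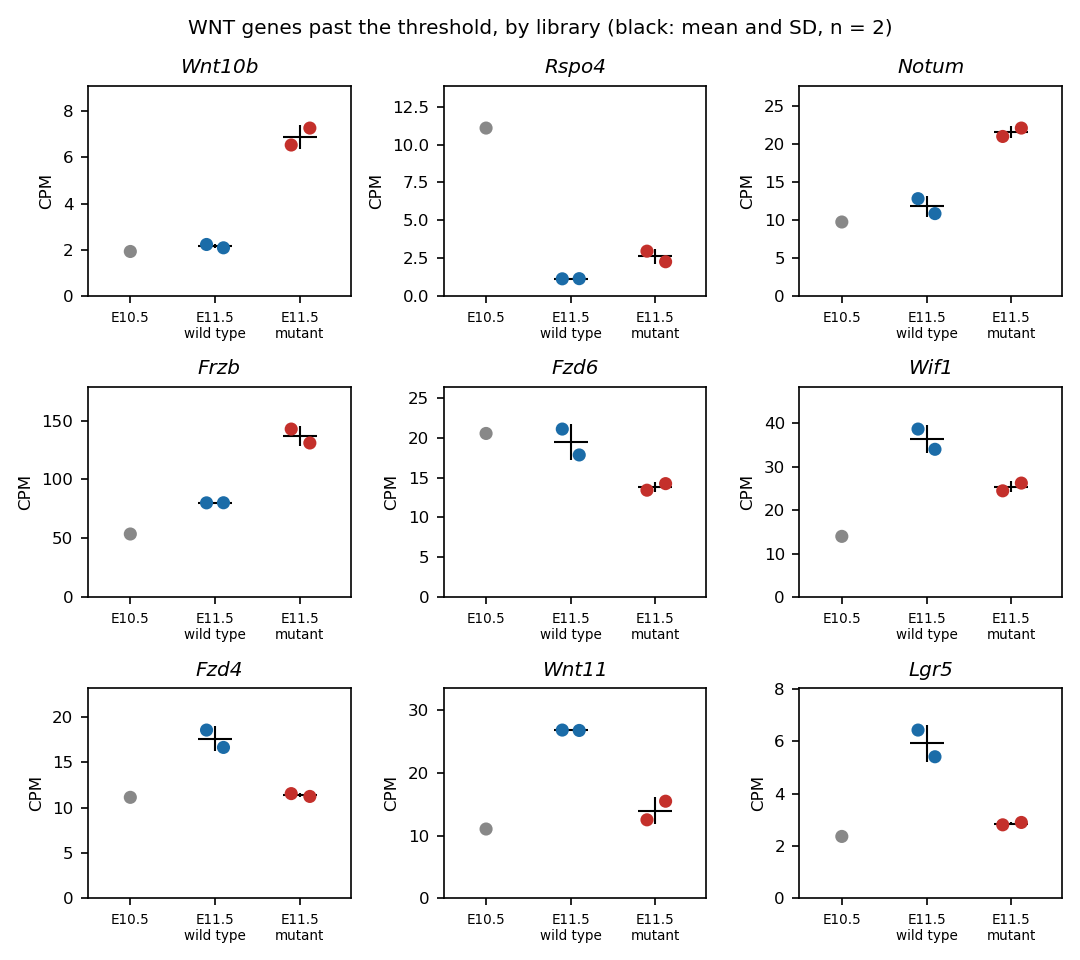
CPM in each of the 5 libraries for the 9 WNT genes past the threshold, with the mean and SD over the 2 libraries of each E11.5 genotype in black. In every panel both mutant libraries lie on 1 side of both wild-type libraries, as for Wnt11 at 12.5 and 15.5 against 26.8 and 26.7.

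Of the 14 receptors and co-receptors 2 Frizzled genes fell and 0 rose. Fzd4, a Frizzled receptor of vessels and other tissues, measured 18.5 and 16.6 CPM in wild type and 11.53 and 11.22 in the mutant. The genotypes did not overlap (log2 fold change -0.64, SE 0.12, adjusted p = 0.00754). Fzd6, a Frizzled of planar polarity known for its role in skin and hair, measured 21.1 and 17.8 CPM in wild type and 13.4 and 14.2 in the mutant. Its log2 fold change was -0.50 (SE 0.12, adjusted p = 0.0276). The Fzd6 call ended without mutant replicate 1 (adjusted p = 0.163), without mutant replicate 2 (0.0673) and with library totals as the only scaling (0.0572), within a range of 0.00456 to 0.163 over 11 alternatives. The 8 endothelial markers summed to 192 to 198 CPM in wild type and 212 to 236 in the mutant. Of them 1 rose (Flt1), 0 fell and none was at 0 in every library. This sum moved in the opposite direction to Fzd4, and its part in that result was not tested.

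A further 4 receptors are given because their unadjusted p was below 0.05, although they missed the adjusted threshold. The share of all genes below that unadjusted value is not given here, so their number is not read as a result. Each of the 4 had a higher mutant mean. Fzd2 measured 117 and 127 CPM in wild type and 166 and 142 in the mutant (log2 fold change 0.33, SE 0.10, adjusted p = 0.0760). Fzd5 measured 4.97 and 7.002 against 9.46 and 8.86 (0.59, SE 0.19, adjusted p = 0.0864). Fzd10 measured 71.6 and 64.7 against 83.9 and 79.1 (0.25, SE 0.09, adjusted p = 0.146). In all 3 of these Frizzled genes the mutant libraries lay above the wild-type libraries. Leaving out wild-type replicate 2 brought Fzd2 (adjusted p = 0.0108) and Fzd5 (0.00258) past the threshold, and leaving out mutant replicate 2 also did so for Fzd2 (0.0421). Over 11 alternatives the adjusted p ran up to 0.614 for Fzd2 and 0.260 for Fzd5. Ror2, the receptor through which Wnt5a polarises cartilage cells, measured 35.0 and 27.3 CPM in wild type and 47.0 and 34.1 in the mutant, and these overlapped (0.37, SE 0.15, adjusted p = 0.189). With no filter on low counts Fzd2 (adjusted p = 0.0156), Fzd5 (0.0117) and Ror2 (0.0274) passed the threshold. Ror2 also passed with a replicate block (0.0438). Its log2 fold change ran from 0.11 without mutant replicate 1 to 0.59 without mutant replicate 2. Fzd3 measured 249 and 236 CPM in wild type and 216 and 222 in the mutant (-0.16, SE 0.08). The co-receptor Lrp6 measured 267 and 232 in wild type and 276 and 270 in the mutant (0.12, SE 0.09).

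R-spondins are secreted proteins that bind Lgr receptors and remove the ligases Rnf43 and Znrf3, which otherwise clear Frizzled from the cell surface. Within this system 1 of 7 genes rose and 1 fell. Rspo4, an R-spondin known in human for nail growth, measured 1.15 and 1.16 CPM in wild type and 2.97 and 2.28 in the mutant. Both mutant values lay above the wild-type values (log2 fold change 1.17, SE 0.27, adjusted p = 0.0205), on counts of 52 to 178 per library. The call ended without mutant replicate 1 (adjusted p = 0.194), within a range of 8.22e-04 to 0.194 over 11 alternatives. Lgr5, the R-spondin receptor and stem cell marker, measured 6.43 and 5.41 CPM in wild type and 2.81 and 2.90 in the mutant. It fell by 1.06 on the log2 scale (SE 0.19, adjusted p = 0.00516), and the genotypes did not overlap.

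Rspo3, the R-spondin with the highest level, measured 44.0 and 54.9 CPM in wild type and 60.4 and 62.6 in the mutant. The mutant values were both higher, but the log2 fold change of 0.30 (SE 0.12) had an adjusted p of 0.181, which became 0.00306 without wild-type replicate 2 and reached 0.478 in another of 11 alternatives. Rspo2, which limb outgrowth requires, measured 6.69 and 5.75 in wild type and 6.82 and 7.23 in the mutant (0.16, SE 0.16). The ligase gene Znrf3 differed more between the wild-type libraries (29.7 and 17.1) than between genotypes (27.5 and 24.7 in the mutant). Rnf43 had a log2 fold change of -0.02 and Rspo1 of 0.90 (SE 0.54), the latter on 10 to 24 counts per E11.5 library.

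The secreted antagonists had 2 risen and 1 fallen gene among 8. Frzb, a decoy that binds WNTs and marks early cartilage, measured 80.2 and 80.3 CPM in wild type and 143 and 131 in the mutant. The wild-type libraries were nearly equal and both mutant libraries well above them (log2 fold change 0.76, SE 0.09, adjusted p = 2.50e-04). Notum, an enzyme that removes the lipid from WNTs and is itself induced by the pathway, measured 12.8 and 10.9 CPM in wild type and 21.0 and 22.1 in the mutant. It rose by 0.85 on the log2 scale (SE 0.12, adjusted p = 0.00104). Wif1, another secreted WNT-binding inhibitor, measured 38.6 and 34.0 CPM in wild type and 24.4 and 26.2 in the mutant. It fell by 0.53 (SE 0.10, adjusted p = 0.00846), a call that ended without mutant replicate 1 (adjusted p = 0.0625, the highest of 11 alternatives, the lowest being 3.40e-04).

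The 12 chondrogenic markers were set beside Frzb. They summed to 554 to 575 CPM in wild type and 714 to 730 in the mutant, with 1 risen (Col9a1), 1 fallen (Matn4) and none at 0 in every library. This sum moved in the direction of Frzb, and its part in that result was not tested. The 9 limb mesenchyme genes summed to 1788 to 1881 CPM in wild type and 1969 to 1987 in the mutant. Of these, 1 rose (Prrx1) and 4 fell (Prrx2, Msx1, Twist1 and Lhx9), and none was at 0 in every library. The part of this list in the member results was not tested. The sum of the 7 muscle lineage genes was 78.8 to 90.6 CPM in wild type and 52.0 to 66.2 in the mutant (0 risen, 1 fallen, Actc1, none at 0), the direction of the members that fell, and its part in those results was not tested. Dkk2, an antagonist that acts on Lrp5 and Lrp6, measured 36.8 and 30.2 CPM in wild type and 35.6 and 41.0 in the mutant (0.18, SE 0.11). Sfrp2 measured 35.8 and 34.1 in wild type and 36.3 and 24.8 in the mutant, which overlapped. Its log2 fold change was -0.20 (SE 0.15), and ran from -0.51 to 0.0475 as mutant replicate 1 or 2 was left out, with an adjusted p of 0.0449 without the first and 0.992 at the most over 11 alternatives. Dkk1, Dkk3 and Sfrp1 also did not pass, and the 5 antagonists below the threshold lay between -0.20 and 0.26.

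None of the 6 feedback and response genes passed the threshold (adjusted p-values of 0.427 or higher), where 7.16% of all genes tested did. In so few genes a count of 0 is near that share, and it is not read as a result about them. DESeq2 also called none of them. Axin2, a scaffold induced by beta-catenin and widely used as its readout, measured 96.0 and 72.2 CPM in wild type and 83.5 and 69.5 in the mutant. The genotypes overlapped, and the log2 fold change was -0.14 (SE 0.13), so an interval of 2 SE on each side ran from -0.40 to 0.11. Nkd2, an inhibitor of Dishevelled, measured 90.5 and 90.3 in wild type and 90.7 and 85.2 in the mutant (-0.05, SE 0.09). Nkd1 measured 29.1 and 25.5 against 28.8 and 21.2 (-0.14, SE 0.14). Tcf7 (-0.27), Lef1 (-0.35) and Sp5 (0.37) lay at the limits of this group. Notum, which rose, and Lgr5, which fell, are also known targets of the pathway. Of the targets in the wider list below, T, Ccnd1 and Tnfrsf19 rose and Myc did not pass the threshold.

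**Figure D4:**
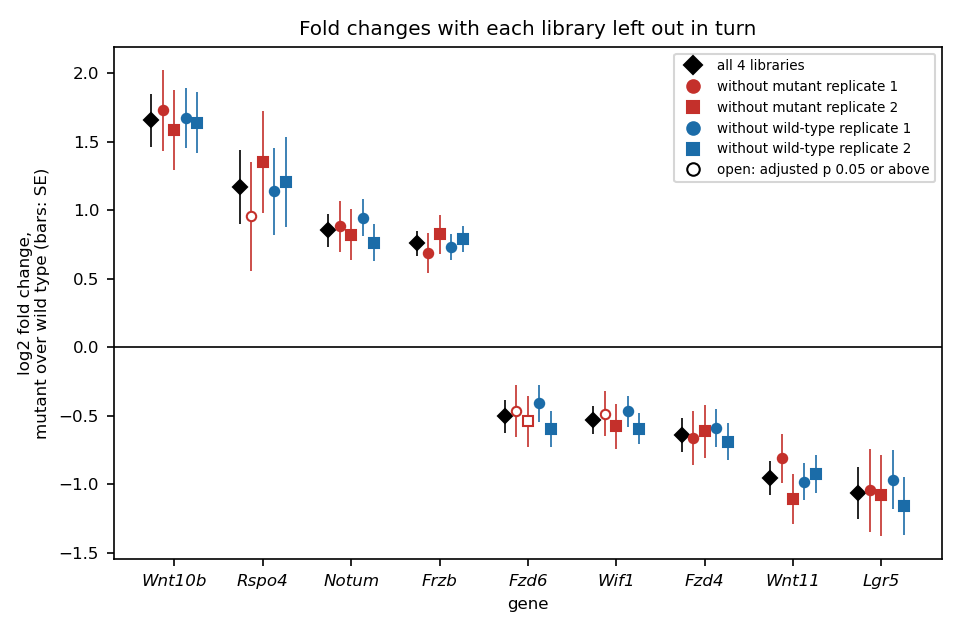
Log2 fold change and SE of the 9 WNT genes past the threshold with all 4 E11.5 libraries (diamonds) and with each library left out; open symbols had an adjusted p of 0.05 or above. Wnt10b, Notum, Frzb, Fzd4, Wnt11 and Lgr5 are filled throughout. Rspo4, Wif1 and Fzd6 have open symbols without mutant replicate 1, and Fzd6 also without mutant replicate 2.

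Some members differed between the 2 wild-type pools by more than between genotypes, and they were picked out after their values were seen. Lrp5 measured 57.9 and 31.2 CPM in wild type and 50.0 and 41.6 in the mutant. Lef1 measured 19.2 and 11.2 against 13.8 and 10.04. Without wild-type replicate 1 the called genes gained Lrp5, Znrf3 and Ror2, and without wild-type replicate 2 they gained Lef1, Fzd2, Fzd5 and Rspo3. For Lrp5, Znrf3 and Lef1 the data do not separate genotype from the difference between pools.

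Outside the members, a wider list of 78 genes covered other WNT ligands and modulators, WNT secretion, the beta-catenin complex, Dishevelled and planar polarity genes, and known targets. Of 72 tested, 5 rose and 2 fell, 9.72% beside the 7.16% of all genes. T, the Brachyury transcription factor and a known WNT target, measured 1.13 and 1.27 CPM in wild type and 7.87 and 7.70 in the mutant. It had the largest change of the list, at 2.67 on the log2 scale (SE 0.21, adjusted p = 1.07e-05). Daam2, a formin of the Dishevelled pathway, measured 39.7 and 28.8 CPM in wild type and 86.2 and 71.8 in the mutant (1.20, SE 0.14, adjusted p = 2.09e-04). Its paralogue Daam1 fell, from 55.7 and 53.1 to 41.3 and 42.3 (-0.39, SE 0.09, adjusted p = 0.0216).

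Draxin (2610109H07Rik in the tables), a secreted axon guidance protein that inhibits WNT signalling, measured 19.3 and 16.4 CPM in wild type and 7.60 and 7.31 in the mutant. It fell by 1.27 on the log2 scale (SE 0.13, adjusted p = 1.23e-04). The 8 neuron and Schwann cell markers summed to 42.2 to 46.5 CPM in wild type and 20.5 to 21.5 in the mutant. Of them 0 rose, 2 fell (Tubb3 and Stmn2) and none was at 0 in every library. This sum moved in the direction of Draxin and of the members that fell, and its part in those results was not tested. Tle1, a co-repressor of TCF factors (0.42), Ccnd1, the cyclin of G1 phase (0.38), and Tnfrsf19, a receptor induced by WNT (0.34), rose. The calls of Tle1, Daam1, Ccnd1 and Tnfrsf19 ended without mutant replicate 1 (adjusted p = 0.232, 0.184, 0.286 and 0.283), and those of Daam1, Ccnd1 and Tnfrsf19 also without mutant replicate 2. The central genes of the pathway did not pass: Ctnnb1, which encodes beta-catenin, measured 1944 and 2018 CPM in wild type and 2042 and 2085 in the mutant (0.04, SE 0.09), and Wls, the carrier that exports WNTs, had 0.08 (SE 0.08).

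The E10.5 library was compared with the wild-type E11.5 libraries. Stage, dissected part and strain label changed together, so they cannot be told apart, and with 1 library there is no test. A gene was counted when its E10.5 value lay 2-fold or more above both wild-type libraries, or as far below both, on log2 TMM-scaled CPM. Of the 45 members 8 were higher at E10.5 and 4 lower, beside 3.68% and 12.5% of the 16323 genes with enough counts (16.2% in either direction). With library totals as the only scaling 7 were higher and 6 lower, since the median of all genes then lay at -0.24 on the log2 scale (E10.5 minus wild type), against -0.0105 with TMM. The CPM values printed for E10.5 carry that shift. The higher members were 3 of the 4 R-spondins, Sfrp1, Fzd7, Ror1, Tcf7 and Sp5. The lower members were Wnt11, Fzd9, Dkk2 and Wif1.

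Rspo1 measured 2.98 CPM at E10.5 against 0.222 and 0.179 in wild type at E11.5. Rspo4 measured 11.1 against 1.15 and 1.16, and Rspo2 23.5 against 6.69 and 5.75, so that all 3 were several-fold higher in the younger bud. Rspo3 measured 27.8, below its E11.5 wild-type values of 44.0 and 54.9, but by less than 2-fold. The antagonist Sfrp1 measured 70.8 CPM at E10.5 against 16.4 and 17.5, and the receptor Ror1 21.8 against 8.58 and 6.41. Fzd7 measured 86.5 against 48.6 and 45.1. Fzd7 was not counted when library totals were the only scaling.

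Of the transcription factors among the members, Tcf7 and Sp5 met the rule and Lef1 did not. Tcf7 measured 21.2 CPM at E10.5 against 7.16 and 5.23, and Sp5, a target of beta-catenin, 2.33 against 0.288 and 0.555. Axin2 did not follow them, at 55.6 CPM against 96.0 and 72.2. In the other direction Fzd9 measured 0.166 CPM against 2.11 and 2.08, on 14 counts at E10.5. Dkk2 measured 10.2 against 36.8 and 30.2, Wif1 14.0 against 38.6 and 34.0, and Wnt11 11.0 against 26.8 and 26.7. Among the marker lists, the chondrogenic sum was 297 CPM at E10.5 and 554 to 575 in wild type at E11.5, the ridge sum 80.6 and 48.8 to 58.4, and the surface ectoderm sum 380 and 574 to 587. The sum of 7 muscle lineage genes was 34.7 CPM at E10.5 and 78.8 to 90.6 in wild type, that of the neuron and Schwann cell markers 21.2 and 42.2 to 46.5, and that of the endothelial markers 254 and 192 to 198. The 9 limb mesenchyme genes summed to 1564 CPM at E10.5 and 1788 to 1881 in wild type. The part of these lists in the differences was not tested.

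**Figure D5:**
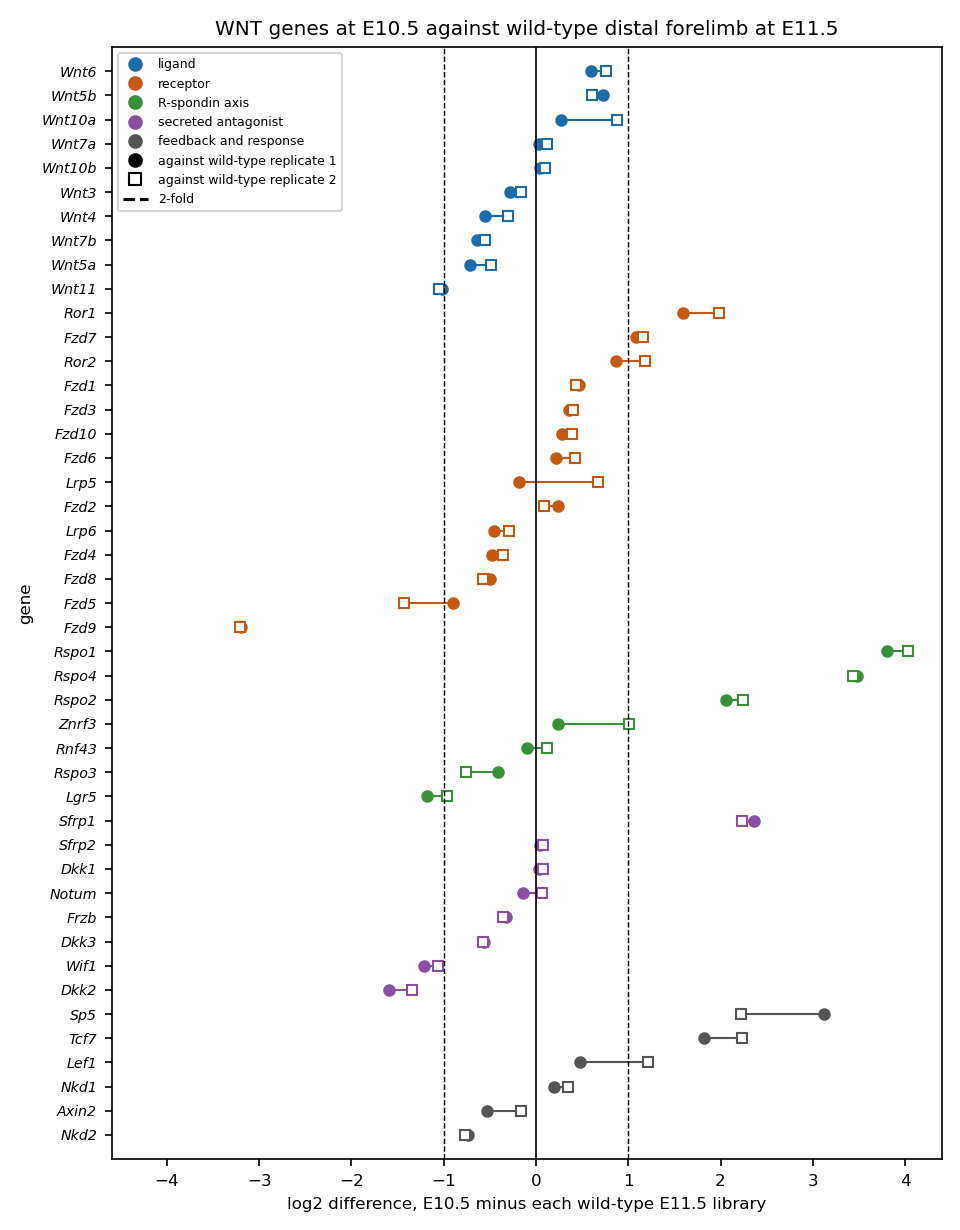
Log2 difference between the E10.5 library and each wild-type E11.5 library for the 45 WNT genes, grouped by role, with dashed lines at 2-fold. Rspo1, Rspo4, Rspo2, Sfrp1, Tcf7, Sp5, Ror1 and Fzd7 lie beyond the right line for both libraries, and Fzd9, Dkk2, Wif1 and Wnt11 beyond the left line.

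The values of the 9 changed members can be set beside their E10.5 values, with the caution that both comparisons use the same wild-type libraries. Wnt11 (11.0 CPM at E10.5), Wif1 (14.0), Lgr5 (2.36) and Fzd4 (11.1) were lower than wild type both at E10.5 and in the mutant. Rspo4 was higher in both, but its mutant mean of 2.63 ± 0.493 CPM (SD, n = 2) stayed far below the E10.5 value of 11.1. Frzb was lower at E10.5 (53.7 CPM) and higher in the mutant (137 ± 8.36) than in wild type (80.2 ± 0.0627). Wnt10b (1.94 CPM at E10.5) and Notum (9.77) lay below both wild-type libraries on CPM and well below the mutant, but with TMM scaling Wnt10b lay above both wild-type libraries and Notum between them. Fzd6 measured 20.5 CPM at E10.5, between its wild-type libraries on CPM and above both with TMM scaling, and was lower in the mutant than in either.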

How the data were processed

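The authors deposited raw counts for each gene symbol, obtained with HTSeq after TopHat2 2.0.13 alignment to mm9, per the submitters' processing notes. The RNA was ribosome-depleted and the libraries strand-specific, per the labels' protocols. The HTSeq strand setting and annotation are not given in the sources used here, so reads of Notum (29.4% of its GENCODE exon bases overlap the antisense Notumos), Sfrp2, Wnt11 and other members with antisense neighbours cannot be fully assigned. The 5 HTSeq total lines were left out of library sizes. Reads in no feature made up 24.3% to 39.6% of the sum of all gene counts and these lines together.

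Genes were filtered with filterByExpr (minimum count 10, total 15), scaled with TMM and tested with edgeR 4.0.16 in R 4.3.3 on the 4 E11.5 libraries with genotype as the term. Adjusted p-values are Benjamini-Hochberg over all 16166 genes tested. SE is the log2 fold change over the root of the F statistic. CPM uses plain library totals. E10.5 differences used a prior count of 2. On simulated counts, 92% of genes changed 1 log2 unit in mutant against wild type were recovered, among 16001 genes. The simulation gave every gene the same spread between libraries (a common dispersion). The 92% is thus not the share recoverable in these data, where spread differs between genes. Members were named when past the adjusted or an unadjusted 0.05, among the 3 highest CPM of a role, or counted at E10.5, and the wider list by adjusted p. Alternatives were DESeq2 1.42.0, its size factors, library totals, no filter, the newer quasi-likelihood estimate, all 5 libraries, a replicate block and leaving out each library. The members and lists were chosen with earlier results of these data known. The labels do not say whether pools shared litters, so p-values measure only the spread between pools.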

Additional observations from a re-analysis of the deposited data

How the results depend on the processing

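The number of changed members was 9 in the fit as reported and 7 to 13 with each library left out in turn, and 6 of the 9 (Wnt10b, Wnt11, Fzd4, Lgr5, Frzb and Notum) passed under all 11 alternatives. Without the filter on low counts 12 members, 12 of the wider list and 1762 of all genes were called, against 9, 7 and 1157. The members gained were Fzd2, Fzd5 and Ror2. Leaving out 1 library gave 4 to 14 of the wider list and 796 to 2018 of all genes (2018 without wild-type replicate 1), and a member median of -0.12 (without wild-type replicate 2) to 0.0601. The log2 fold change changed sign with a library left out for 8 named members that were not called: it ran from -0.20 to 0.00348 for Wnt5a, -0.0907 to 0.14 for Fzd7, -0.20 to 0.16 for Ror1, -0.17 to 0.57 for Znrf3, -0.51 to 0.0475 for Sfrp2, -0.38 to 0.0700 for Nkd1, -0.31 to 0.0433 for Axin2 and -0.0193 to 0.98 for Sp5. The cause was not tested.

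The replicate numbers were not treated as pairs in the main fit. Deviations of same-numbered libraries had a correlation of -0.078 across 16166 genes. With 2 libraries per genotype, this value cannot show whether pools shared litters, since such an effect can be limited to some genes. With a replicate block 10 members, 7 of the wider list and 1252 genes were called and the member median was -0.02; Ror2 was the added member (adjusted p = 0.0438). At E10.5, 18 members passed a 1.5-fold rule and 8 a 3-fold rule, against 12. Depth limits Rspo1 (10 to 24 counts per E11.5 library, SE 0.54) and Sp5 (13 to 34, SE 0.45), in which no change was detectable at this depth.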

Other observations

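In the wider list, 5 of 74 genes with enough counts were higher and 4 lower at E10.5 by the 2-fold rule. Of all 16323 genes with enough counts, 3.68% were higher and 12.5% lower. The genes below were named after their values were seen, and their number is not read as a result. Myc, a growth regulator and WNT target, measured 14.8 CPM at E10.5 against 3.97 and 2.56 in wild type at E11.5, and Dact3, an antagonist of Dishevelled, 57.9 against 28.6 and 29.5. Rac1, a small GTPase of cell polarity, measured 278 against 149 and 155, Wnt16 2.34 against 1.04 and 0.770, and Cdx1 0.855 against 0.133 and 0.0358. With library totals as the only scaling Rac1 and Dact3 no longer met the rule. In the lower group, Sostdc1, a secreted inhibitor of WNT and BMP, measured 2.44 CPM against 16.6 and 15.2, and Prickle2, a planar polarity gene, 9.74 against 26.5 and 22.9. Draxin measured 6.95 against 19.3 and 16.4, and Wnt3a 0.0594 against 1.17 and 0.860, on 5 counts at E10.5. Sostdc1 (13.3 and 14.0 CPM) and Dact3 (40.4 and 34.4) in the mutant did not pass the threshold against wild type (adjusted p = 0.319 and 0.0831).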
